A study of Gallus gallus with 6 samples.

Results

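The cell cycle genes described here are a list of 45 genes of DNA replication and of mitosis, and 36 of them were found on the chicken array by the gene symbol of its annotation, 13 of replication and 23 of mitosis. They were read among 20804 probe sets, which held 11528 genes with 1 symbol each. A gene with several probe sets was read from the one with the highest mean over the arrays. The symbols *CDC6*, *GINS2*, *PCNA*, *CDK2*, *CCNA2*, *CCNB2*, *CCNB3*, *AURKA* and *CENPE* were not found in the annotation used here, so these 9 genes were not analysed. No measured value entered the choice of the list, apart from the choice of the brightest probe set, but the list was drawn up with earlier results of these data known.

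The 3 tissues were the ductus arteriosus (DA) in its proximal part, next to the pulmonary artery, and in its distal part, next to the aorta, and the descending aorta itself. All came from Hypeco Nera chicken embryos at the internal pipping (IP) stage, when the beak has entered the air cell of the egg and the DA is still open, and the DA was that of the right side. The labels name no treatment and no transgene. Each tissue was measured on 2 Affymetrix GeneChip Chicken Gene 1.0 ST arrays, 6 in all. The material for each array was prepared from 100 ng of total RNA from a pool of 10 embryos. Whether the duplicate arrays rest on 1 pool or on 2 is not stated in the labels or methods, and p-values then measure only how far these duplicates lie apart, a spread that may be technical.

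A cell that divides first copies its DNA and then shares the copies between its daughters. The MCM helicase is loaded on replication origins with the help of *CDT1* before the S phase begins. In the S phase it is switched on by *CDC45* and the GINS complex. Cyclin E with its kinase starts the phase, and ribonucleotide reductase and thymidylate synthase supply the nucleotides. In mitosis the kinases *CDK1* and *PLK1* start the process, condensins fold the chromosomes, kinetochores tie them to the spindle under the watch of a checkpoint, and *ECT2* and *ANLN* act when the cell is cut apart. Transcripts of both groups are abundant in dividing cells and scarce in resting ones, and in a developing vessel wall they can come from smooth muscle, endothelial cells, fibroblasts or any other dividing cell in the sample. In bulk tissue, fewer cells of a kind and less RNA per cell cannot be told apart.

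Values are deposited log2 RMA values, where 1 unit is a 2-fold change, and levels of different genes are not compared with each other, since each probe set has its own response. The median of an array was 6.61 to 6.66, and its lower quartile 5.25 to 5.41. None of the 36 genes lay below the lower quartile on all 6 arrays, although *NCAPG*, a condensin subunit, came near it with 5.38 to 5.63. The measured smooth muscle markers averaged 9.47 and 9.64 on the aorta arrays, 11.00 and 11.14 on the distal DA arrays and 11.32 and 11.47 on the proximal DA arrays. These averages were above the median of every array and differed between the tissues. They do not by themselves identify the tissue.

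At the adjusted threshold, the counts of cell cycle genes called were near the shares of all probe sets called. In limma with Benjamini-Hochberg adjustment over all probe sets, and with an adjusted p under 0.05 as the threshold, 2 of 36 were called between the proximal DA and the aorta, where 5.66% of all probe sets were called. *ANLN* was higher and *CCNE2* lower there, against 3.33% of all probe sets called higher and 2.34% called lower. Between the distal DA and the aorta 0 of 36 were called, against 1.60% of all probe sets, and between the proximal and the distal DA 0 of 36, against 0.250%. At an unadjusted p under 0.05, limma gave 2 higher and 6 lower for the proximal DA against the aorta, 0 higher and 5 lower for the distal DA against the aorta, and 5 higher and 1 lower for the proximal against the distal DA. The shares of all probe sets at that unadjusted threshold were 8.39% higher and 9.75% lower, 5.44% and 5.34%, and 3.95% and 3.36%, in the same order. For the 13 replication genes alone the counts were 0 higher and 5 lower, 0 and 4, and 2 and 1. For the 23 mitosis genes they were 2 higher and 1 lower, 0 and 1, and 3 and 0. The median width of a 95% interval on either side of a difference was 0.38 over the 36 genes, without adjustment for the number of probe sets. With 2 arrays per tissue, changes of a single gene below about that size were hardly detectable even without adjustment. The adjusted threshold was harder to reach. The 2 calls were at −0.86 (*CCNE2*) and 0.77 (*ANLN*), and no smaller difference of the 36 genes was called. *MCM2*, with a difference of −0.62 between the distal DA and the aorta, was not called. A gene without a call is therefore not shown to be unchanged. The comparisons of the 2 DA parts with the aorta share the aorta arrays and are not independent of each other.

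**Figure D1:**
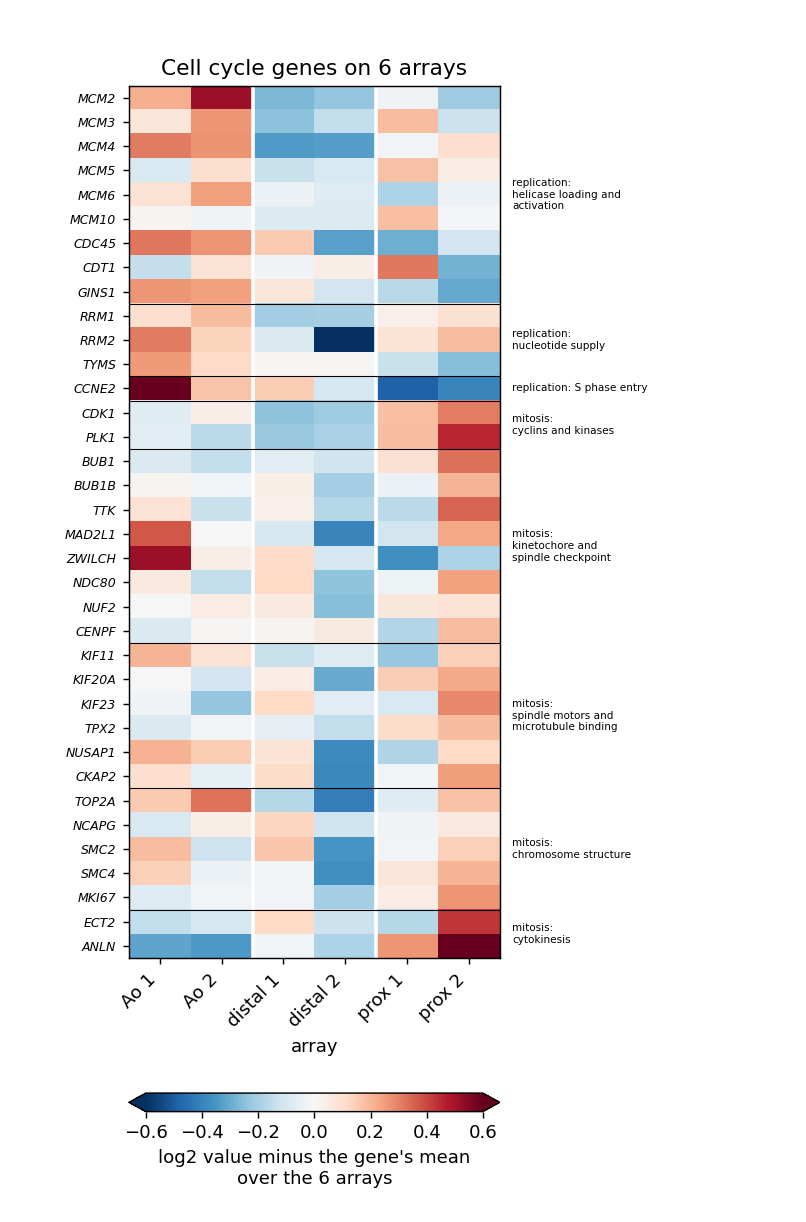
Each row is 1 of the 36 cell cycle genes and each column 1 of the 6 arrays (Ao, aorta; distal, distal DA; prox, proximal DA), and the colour gives the log2 value minus the mean of that gene over the 6 arrays, with values beyond 0.6 in the end colours. Replication genes are mostly red on both aorta arrays, and mitosis genes are mostly blue on distal DA replicate 2 and red on proximal DA replicate 2.

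The replication genes were highest in the aorta for most members. The mean was highest in the aorta for 10 of 13, in the proximal DA for 3 and in the distal DA for 0, while over all probe sets the aorta was highest for 40.8%, the proximal DA for 31.2% and the distal DA for 28.0%. Both aorta arrays lay above all 4 DA arrays for 8 of 13 replication genes (*MCM2*, *MCM4*, *MCM6*, *CDC45*, *GINS1*, *RRM1*, *TYMS* and *CCNE2*), and 13.2% of all probe sets had this pattern. Against the aorta, 10 of 13 lay lower in the proximal DA, with a median log2 difference of −0.25, and 12 of 13 in the distal DA, with a median of −0.35. Over all probe sets the medians were −0.02 and −0.01, and 52.4% and 50.2% lay lower. The arrays of the 2 tissues did not overlap, with the DA part below the aorta, for 8 of 13 replication genes in the proximal DA, where 23.1% of all probe sets had this pattern, and for 11 of 13 in the distal DA, against 19.8%. No replication gene had the DA part above the aorta without overlap, against 19.0% and 19.9% of all probe sets. Both distal DA arrays were below all 4 others for 6 of 13 (*MCM2*, *MCM3*, *MCM4*, *MCM10*, *RRM1* and *RRM2*), against 3.80%. The count of replication genes with the highest mean in the aorta was 9 to 11 when each array was left out in turn, an alternative added after the data had been seen.

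Among the genes that load and activate the helicase, *MCM4*, a helicase subunit, gave the smallest p against the aorta in the distal DA. It measured 7.87 and 7.83 in the aorta, 7.22 and 7.23 in the distal DA and 7.54 and 7.66 in the proximal DA. The tissues did not overlap, and the gap between the arrays of a tissue was no larger than 0.12. The distal DA was 0.63 lower than the aorta (1.54-fold, 95% interval −0.94 to −0.31), which missed the threshold in limma (adjusted p = 0.0868). Of the alternatives run, it passed with 1, the brighter 10404 of the probe sets, where the adjusted p was 0.0454. The proximal DA was 0.25 lower than the aorta (interval −0.57 to 0.07, adjusted p = 0.402) and 0.38 higher than the distal DA (interval 0.06 to 0.69, adjusted p = 0.524).

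*MCM2*, another subunit, measured 7.74 and 8.04 in the aorta, 7.25 and 7.29 in the distal DA and 7.50 and 7.31 in the proximal DA. Both aorta arrays were above every DA array. Relative to the aorta, the distal DA was 0.62 lower on the log2 scale (interval −0.99 to −0.25, adjusted p = 0.150 in limma) and the proximal DA 0.49 lower (interval −0.86 to −0.11, adjusted p = 0.154). The other helicase subunits varied less. *MCM3* ranged from 7.84 to 8.03 in the aorta, from 7.52 to 7.62 in the distal DA and from 7.64 to 7.95 in the proximal DA, and *MCM6* from 7.87 to 8.03, from 7.71 to 7.75 and from 7.60 to 7.75. *MCM5* had its highest mean in the proximal DA, where it lay 0.11 above the aorta with an interval of −0.23 to 0.45. The MCM values in the DA were thus not all below those in the aorta.

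*GINS1*, a subunit of the GINS complex, gave the smallest p of the helicase genes between the proximal DA and the aorta. It measured 8.24 and 8.22 in the aorta, 8.05 and 7.86 in the distal DA and 7.81 and 7.67 in the proximal DA. The 3 tissues did not overlap, with the distal DA in between. It lay 0.49 below the aorta in the proximal DA (interval −0.83 to −0.15, adjusted p = 0.113 in limma), and 0.28 below it in the distal DA (interval −0.61 to 0.06, adjusted p = 0.594).

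*CDC45*, which travels with the helicase, measured 7.83 and 7.78 in the aorta, 7.67 and 7.19 in the distal DA and 7.22 and 7.40 in the proximal DA. The 2 distal DA arrays were as far apart as the extremes of the DA, and both aorta arrays were above them. The origin licensing factor *CDT1* showed no order of tissues, with a spread from 6.95 to 7.55 within the proximal DA alone. The initiation factor *MCM10* stayed between 6.26 and 6.52, with both distal DA arrays at the lower end.

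Of the genes of nucleotide supply, *RRM2*, the regulated small subunit of ribonucleotide reductase, was lowest in the distal DA. It measured 6.91 and 6.73 in the aorta, 6.51 and 5.97 in the distal DA and 6.68 and 6.78 in the proximal DA. The aorta and the proximal DA overlapped, and distal DA replicate 2 stood apart from every other array. The distal DA was 0.58 below the aorta (interval −1.05 to −0.11, adjusted p = 0.315 in limma) and the proximal DA 0.49 above the distal DA (interval 0.02 to 0.96, adjusted p = 0.634). Without distal DA replicate 2 these differences were −0.31 and 0.22, and without distal DA replicate 1 they were −0.85 and 0.76. The large subunit, *RRM1*, measured 8.15 and 8.24, 7.84 and 7.85, and 8.08 and 8.14 in the aorta, the distal and the proximal DA. It was also lowest in the distal DA, by 0.35 against the aorta (interval −0.66 to −0.04, adjusted p = 0.383). *TYMS*, thymidylate synthase, ran the other way within the DA, with 7.08 and 6.94 in the aorta, 6.83 and 6.83 in the distal DA and 6.69 and 6.57 in the proximal DA. Its difference from the aorta in the proximal DA was −0.38 (interval −0.71 to −0.05, adjusted p = 0.198).

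*CCNE2*, a cyclin E that drives entry into the S phase, was the called replication gene. It measured 7.77 and 7.28 in the aorta, 7.26 and 7.0 in the distal DA and 6.62 and 6.71 in the proximal DA. Both proximal DA arrays were below all others, while the aorta and the distal DA came within 0.02 of each other. The proximal DA was 0.86 lower than the aorta (1.82-fold, SE 0.196, interval −1.32 to −0.40, adjusted p = 0.0497 in limma), next to the threshold. The call was lost without aorta replicate 1 (difference −0.62, adjusted p = 0.149), without either distal DA array or in a fit of only these 2 tissues (adjusted p = 0.0785 each), and without proximal DA replicate 1 or 2 (adjusted p = 0.197 and 0.154), and it held without aorta replicate 2 (adjusted p = 0.0267). It was also lost after quantile normalization (adjusted p = 0.0596) and cyclic loess (adjusted p = 0.0506). The distal DA lay 0.40 below the aorta (interval −0.85 to 0.06, adjusted p = 0.563), and the proximal 0.47 below the distal DA (interval −0.92 to −0.01, adjusted p = 0.670).

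**Figure D2:**
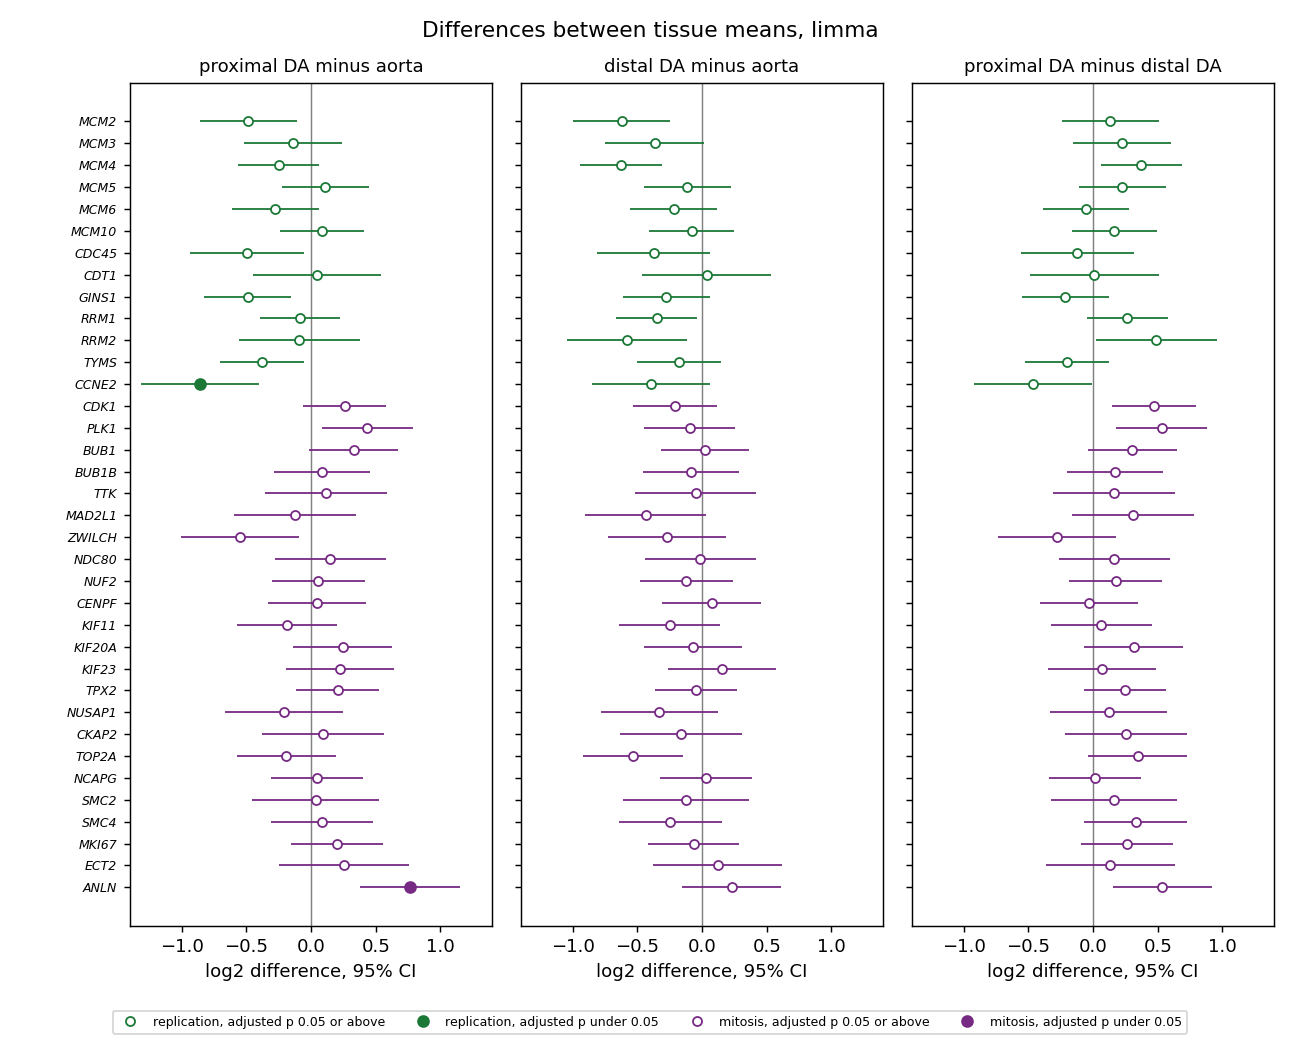
The horizontal axis gives the log2 difference between tissue means with its 95% interval from limma, for each of the 36 genes in the 3 comparisons, with filled points at an adjusted p under 0.05. Filled points are *CCNE2* at −0.86 and *ANLN* at 0.77, both in the proximal DA against the aorta, and most replication genes lie left of 0 in both comparisons with the aorta.

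The mitosis genes had another order of tissues. The mean was highest in the proximal DA for 17 of 23, in the aorta for 5 and in the distal DA for 1, and lowest in the distal DA for 16. Over all probe sets the distal DA was lowest for 24.0%. Both proximal DA arrays lay above all 4 other arrays for 8 of 23 (*CDK1*, *PLK1*, *BUB1*, *NUF2*, *KIF20A*, *TPX2*, *MKI67* and *ANLN*), against 9.06% of all probe sets and 0 of 13 replication genes. The median log2 difference was 0.10 between the proximal DA and the aorta, −0.09 between the distal DA and the aorta, and 0.18 between the proximal and the distal DA, where 21 of 23 lay above 0. Over all probe sets the medians were −0.02, −0.01 and −0.02, and 44.8% lay above 0 in the last comparison. The proximal and distal DA arrays did not overlap for 10 of 23 mitosis genes with the proximal DA higher and for 1, *ZWILCH*, with it lower, against 14.7% and 18.0% of all probe sets, and both distal DA arrays were below all others for 3 (*CDK1*, *PLK1* and *TOP2A*), a pattern of 3.80% of all probe sets. Much of this order rested on 2 arrays. Without distal DA replicate 2 the distal DA was lowest for 6 of 23 mitosis genes, not 16, it lay below the aorta for 8, not 17, and the proximal DA lay above it for 16, not 21. Without proximal DA replicate 2 the proximal DA was highest for 10, not 17, and the aorta for 9, not 5. The proximal DA then lay below the aorta for 11 of 23, not 5, and above the distal DA for 15, not 21. These counts were added after the data had been seen.

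Replicate arrays differed in the mitosis genes together. In the proximal DA, replicate 2 was above replicate 1 for 23 of 23, with a median gap of 0.25. Of all probe sets 44.9% were higher on replicate 2, and of the 11528 genes, read like the members, 52.5%. In the distal DA, replicate 1 was above replicate 2 for 19 of 23, with a median gap of 0.24, against 53.2% of all probe sets. The aorta arrays were closer, with a median gap of 0.11 and replicate 1 above replicate 2 for 15 of 23. As a mean over the 23 genes, each taken relative to its own mean, the level was 0.04 and −0.04 on the aorta arrays, 0.00 and −0.22 on the distal DA arrays and −0.02 and 0.23 on the proximal DA arrays, so that replicate 1 of the 3 tissues differed by less than replicates 1 and 2 of either DA part. By count, the 13 replication genes did not share this split. Replicate 2 was higher for 6 of 13 in the proximal DA and for 6 in the distal DA. Their mean was 0.18 and 0.20 on the aorta arrays. It was −0.08 and −0.18 on the distal DA arrays and −0.03 and −0.10 on the proximal DA arrays. Of the 35 other replication genes described below, 23 were higher on distal DA replicate 1 and 12 on replicate 2.

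**Figure D3:**
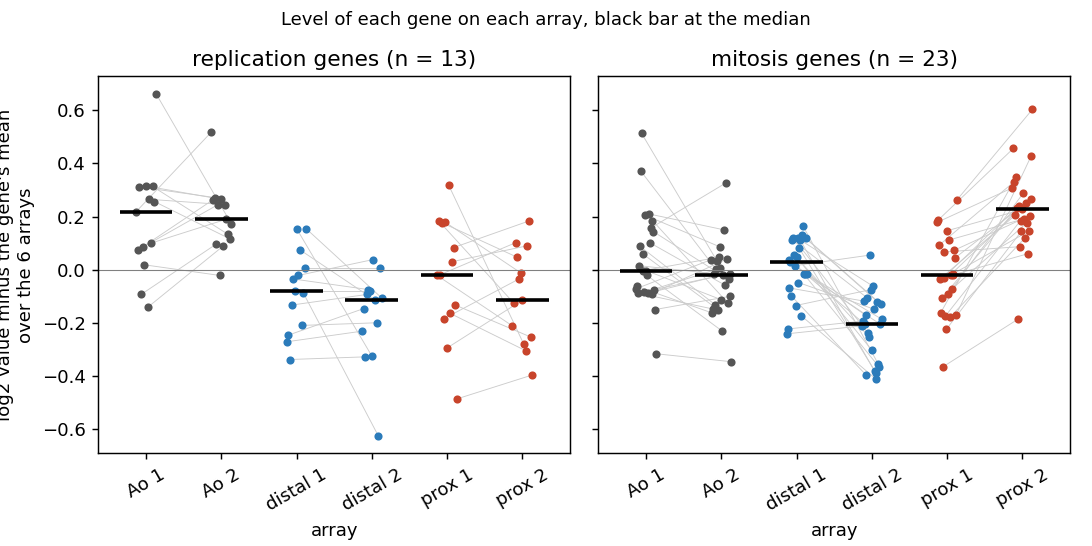
Each point is 1 gene on 1 array, given as its log2 value minus its mean over the 6 arrays, with the median of an array as a black bar and grey lines joining the values of a gene on the 2 arrays of a tissue. The 13 replication genes have both aorta medians, 0.22 and 0.19, above the 4 DA medians, whereas the 23 mitosis genes depart from 0 mainly on distal DA replicate 2, at −0.21, and proximal DA replicate 2, at 0.23.

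*ANLN*, the actin-binding scaffold of the contractile ring, was the called mitosis gene. It measured 7.61 and 7.58 in the aorta, 7.91 and 7.74 in the distal DA and 8.19 and 8.53 in the proximal DA. The 3 tissues did not overlap, with the aorta lowest and the proximal DA highest. Its level in the proximal DA was 0.77 above the aorta (1.70-fold, SE 0.164, interval 0.38 to 1.15, adjusted p = 0.0403 in limma). Leaving out aorta replicate 1 gave an adjusted p of 0.0968, aorta replicate 2 of 0.126, either distal DA array 0.0772 and proximal DA replicate 2 of 0.152, with a difference of 0.60 in the last case. The call held without proximal DA replicate 1 (adjusted p = 0.0482) and was lost in a fit of only these 2 tissues (adjusted p = 0.0772). The distal DA lay 0.23 above the aorta (interval −0.15 to 0.61, adjusted p = 0.745), and the proximal 0.54 above the distal DA (interval 0.15 to 0.92, adjusted p = 0.385). *ECT2*, which activates the RhoA pathway for the same cut, reached 7.19 on proximal DA replicate 2 and stayed at 6.59 to 6.88 on the other arrays.

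The kinases *PLK1* and *CDK1* both had the proximal DA above and the distal DA below every other array. *PLK1* measured 8.01 and 7.91 in the aorta, 7.85 and 7.88 in the distal DA and 8.26 and 8.53 in the proximal DA. Its log2 difference was 0.44 between the proximal DA and the aorta (interval 0.08 to 0.79, adjusted p = 0.175 in limma) and 0.53 between the proximal and the distal DA (interval 0.18 to 0.88, adjusted p = 0.338). *CDK1*, the kinase that drives entry into mitosis, measured 8.62 and 8.73, 8.45 and 8.48, and 8.87 and 9.00 in the aorta, the distal and the proximal DA. It was 0.26 above the aorta in the proximal DA (interval −0.06 to 0.58, adjusted p = 0.395) and 0.21 below it in the distal DA (interval −0.53 to 0.11, adjusted p = 0.715). The gap within a tissue was at most 0.13 for *CDK1* and 0.27 for *PLK1*, below the differences between the 2 DA parts, 0.47 and 0.53.

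**Figure D4:**
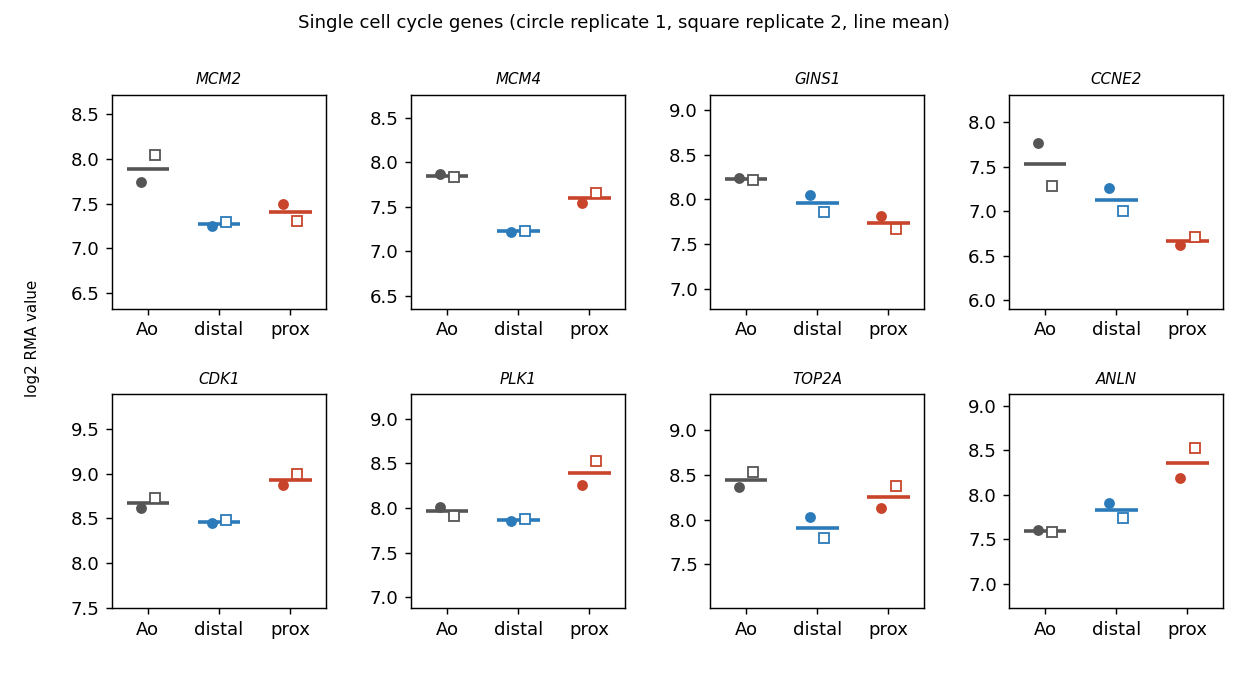
Log2 RMA values of 8 single genes are shown per tissue (Ao, aorta; distal, distal DA; prox, proximal DA), replicate 1 as a circle, replicate 2 as a square and the mean as a line, each panel spanning the same range of log2 units. The upper row holds replication genes, with both aorta arrays above all DA arrays in each panel, and of the mitosis genes in the lower row *CDK1*, *PLK1* and *ANLN* have both proximal DA arrays on top.

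The 8 genes of the kinetochore and the spindle checkpoint did not all share 1 order of tissues. In the proximal DA 6 lay above and 2 below the aorta, and in the distal DA 2 above and 6 below it. Between the proximal and the distal DA 6 lay above 0 and 2 below. Of all probe sets, 46.8% lay above the aorta in the proximal DA and 50.2% below it in the distal DA. Between the DA parts 44.8% lay above 0. All 8 genes were higher on proximal DA replicate 2, and 7 on distal DA replicate 1. *ZWILCH*, a subunit of the complex that recruits checkpoint proteins, lay lowest in the proximal DA, with 8.31 and 7.83 in the aorta, 7.91 and 7.69 in the distal DA and 7.43 and 7.61 in the proximal DA. Its difference from the aorta there was −0.55 (interval −1.01 to −0.09, adjusted p = 0.185 in limma), against a gap of 0.48 between the aorta arrays. *MAD2L1*, the checkpoint protein that holds back the onset of anaphase, measured 8.64 and 8.27 in the aorta, 8.17 and 7.87 in the distal DA and 8.16 and 8.50 in the proximal DA. The distal DA was 0.44 lower than the aorta (interval −0.90 to 0.03, adjusted p = 0.516), and the aorta and the proximal DA overlapped. *BUB1*, a checkpoint kinase, was 6.77 to 6.85 on the 4 arrays of the aorta and the distal DA and 7.01 and 7.25 in the proximal DA, a difference of 0.33 from the aorta (interval −0.01 to 0.67, adjusted p = 0.294). For *BUB1B*, *TTK*, *NDC80*, *NUF2* and *CENPF*, the difference between any 2 tissues was at most 0.18 in the probe set read. A second probe set of *CENPF* differed by more and is described below.

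Among the spindle motors and microtubule-binding proteins, the largest difference in size from the aorta was that of *NUSAP1*, which bundles spindle microtubules. It measured 7.38 and 7.32 in the aorta, 7.25 and 6.79 in the distal DA and 6.99 and 7.29 in the proximal DA, and was the only mitosis gene with both aorta arrays above all DA arrays. The distal DA was 0.33 lower than the aorta (interval −0.78 to 0.12, adjusted p = 0.659 in limma), with 0.46 between the distal DA arrays. *TPX2*, which activates aurora A on the spindle, measured 7.74 and 7.81, 7.78 and 7.68, and 7.94 and 8.02, and was 0.21 above the aorta in the proximal DA (interval −0.11 to 0.52, adjusted p = 0.508). The motor *KIF20A* had the same order, with 7.83 and 7.72, 7.88 and 7.53, and 7.98 and 8.06. *KIF11*, *KIF23* and *CKAP2* differed from the aorta by 0.25 at most, and their tissues overlapped in each comparison except *KIF11* between the distal DA and the aorta.

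Of the genes of chromosome structure, *TOP2A*, the topoisomerase that untangles sister chromosomes, was lowest in the distal DA. It measured 8.36 and 8.53 in the aorta, 8.03 and 7.79 in the distal DA and 8.13 and 8.38 in the proximal DA. The distal DA did not overlap with either other tissue, and the aorta and the proximal DA did overlap, by 0.02. The distal DA was 0.54 below the aorta (1.45-fold, interval −0.92 to −0.15, adjusted p = 0.243 in limma). *MKI67*, the common marker of dividing cells, measured 9.36 and 9.42 in the aorta, 9.42 and 9.23 in the distal DA and 9.48 and 9.70 in the proximal DA. It was 0.20 above the aorta in the proximal DA (interval −0.15 to 0.55, adjusted p = 0.573) and 0.07 below it in the distal DA (interval −0.42 to 0.29, adjusted p = 0.946), and it overlapped between the distal DA and the aorta. The condensin subunits *SMC2* and *SMC4* had their lowest value, 6.94 and 7.06, on distal DA replicate 2, and neither differed from the aorta by more than 0.25.

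Other genes of the same pathways were read from further lists. Of 48 other replication genes 35 were measured and 0 were called in limma in any comparison. At an unadjusted p under 0.05 there were 6 below and 0 above the aorta in the proximal DA, and 5 below and 0 above it in the distal DA, where the shares of all probe sets were 9.75% and 8.39%, and 5.34% and 5.44%. Their means lay below the aorta for 32 of 35 in the proximal DA (median −0.22) and for 34 of 35 in the distal DA (median −0.17), against the 52.4% and 50.2% of all probe sets. The smallest p in each of these comparisons belonged to *GINS3* and *DUT*. *GINS3*, another GINS subunit, measured 8.32 and 8.26 in the aorta, 7.84 and 7.89 in the distal DA and 7.70 and 7.80 in the proximal DA, 0.54 below the aorta there (adjusted p = 0.0668 in limma). *DUT*, which removes dUTP, lay 0.70 below the aorta in the distal DA (adjusted p = 0.198). Between the 2 DA parts it was *FEN1*, the flap endonuclease of lagging strand synthesis, with 7.16 and 7.04 in the aorta, 6.91 and 6.62 in the distal DA and 7.18 and 7.07 in the proximal DA (adjusted p = 0.699 for the proximal against the distal DA). Of 81 other mitosis genes 51 were measured, again with 0 called and medians of 0.04, −0.08 and 0.14 for the proximal DA against the aorta, the distal DA against the aorta and the proximal against the distal DA. At an unadjusted p under 0.05 limma gave 5 higher and 3 lower, 0 higher and 4 lower, and 4 higher and 0 lower of the 51, in the same order. The shares of all probe sets were 8.39% and 9.75%, 5.44% and 5.34%, and 3.95% and 3.36%, so that the first pair of counts was near or below the background. Replicate 2 of the proximal DA was above replicate 1 for 33 of these 51. Of the 51, *SGO2*, *DEPDC1B* and *CKS2* lay below the lower quartile on all 6 arrays.

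The transcription factors *MYBL2* and *FOXM1* had their highest values in the aorta, unlike most of the mitosis genes. *MYBL2*, the MYB protein that works with the MuvB complex, measured 8.87 and 8.90 in the aorta, 8.37 and 8.27 in the distal DA and 8.27 and 8.38 in the proximal DA. Its difference from the aorta was −0.57 in the distal DA (adjusted p = 0.121 in limma) and −0.56 in the proximal DA (adjusted p = 0.0621), against 0.11 at most between the arrays of a tissue. *FOXM1*, which activates genes of the G2 phase and of mitosis, measured 7.12 and 7.31, 6.69 and 6.75, and 6.41 and 6.70, and was 0.66 below the aorta in the proximal DA (adjusted p = 0.0604). Its difference was −0.44 when its probe sets were reduced to their median. The kinase *AURKB*, of the chromosomal passenger complex, had the opposite order, with 6.49 and 6.41 in the aorta, 6.52 and 6.62 in the distal DA and 6.84 and 7.48 in the proximal DA, where it was 0.71 above the aorta (adjusted p = 0.120).

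Of the genes that hold the cell cycle back, 13 of 18 were measured, and 2 were called, both above the aorta in the proximal DA, where 3.33% of all probe sets were called higher. At an unadjusted p under 0.05, 3 were higher and 1 was lower there, against 8.39% and 9.75% of all probe sets. *BTG2*, an antiproliferative protein that promotes the decay of mRNA, measured 8.84 and 9.19 in the aorta, 9.80 and 10.07 in the distal DA and 10.27 and 10.14 in the proximal DA. Both DA parts were above the aorta on every array. The proximal DA was 1.19 above the aorta (2.28-fold, adjusted p = 0.00970 in limma) and the distal DA 0.92 (1.89-fold, adjusted p = 0.0576). *TOB1*, a member of the same protein family, measured 7.49 and 7.63, 8.48 and 8.37, and 8.53 and 9.02, which put the proximal DA 1.22 above the aorta (2.32-fold, adjusted p = 0.0113) and the distal DA 0.87 (adjusted p = 0.0898). The call of *BTG2* was lost without proximal DA replicate 1 or 2 (adjusted p = 0.0655 and 0.0606), and that of *TOB1* without proximal DA replicate 2 (adjusted p = 0.0555). In the distal DA *BTG2* passed the threshold with eBayes with trend, among the brighter probe sets and as the median of its probe sets (adjusted p = 0.0420, 0.0264 and 0.0430), and *TOB1* among the brighter probe sets (adjusted p = 0.0434). *CDKN1B*, the inhibitor p27, was also above the aorta on all 4 DA arrays, but by 0.21 in the proximal DA (adjusted p = 0.560). *CDKN2C*, an inhibitor of the G1 kinases, measured 7.25 and 7.09, 7.12 and 6.98, and 7.41 and 7.44, with both proximal DA arrays above all others and the distal DA overlapping the aorta. *RBL1*, a relative of the retinoblastoma protein, was below the aorta on all 4 DA arrays, with 7.69 and 7.70 in the aorta, 7.43 and 7.27 in the distal DA and 7.36 and 7.18 in the proximal DA. Neither difference from the aorta passed in limma (proximal DA −0.43, adjusted p = 0.167, and distal DA −0.35, adjusted p = 0.452).

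Of the G1 cyclins, their kinases and the E2F factors, 14 of 18 were measured and 0 were called in limma. At an unadjusted p under 0.05, 1 lay above and 2 below the aorta in the proximal DA. The shares of all probe sets there were 8.39% and 9.75%, so that these counts were near the background. *E2F7*, an E2F that represses genes of the S phase, had the largest difference. It measured 5.63 and 6.01 in the aorta, 6.33 and 6.92 in the distal DA and 6.66 and 7.26 in the proximal DA, with replicate 2 the higher in each tissue. Its level was 1.14 above the aorta in the proximal DA (adjusted p = 0.0591) and 0.81 in the distal DA (adjusted p = 0.308). Its relative *E2F8* ran the other way, with 8.08 and 7.86, 7.64 and 7.32, and 7.54 and 7.61, and a difference of −0.49 in the distal DA (adjusted p = 0.308).

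**Figure D5:**
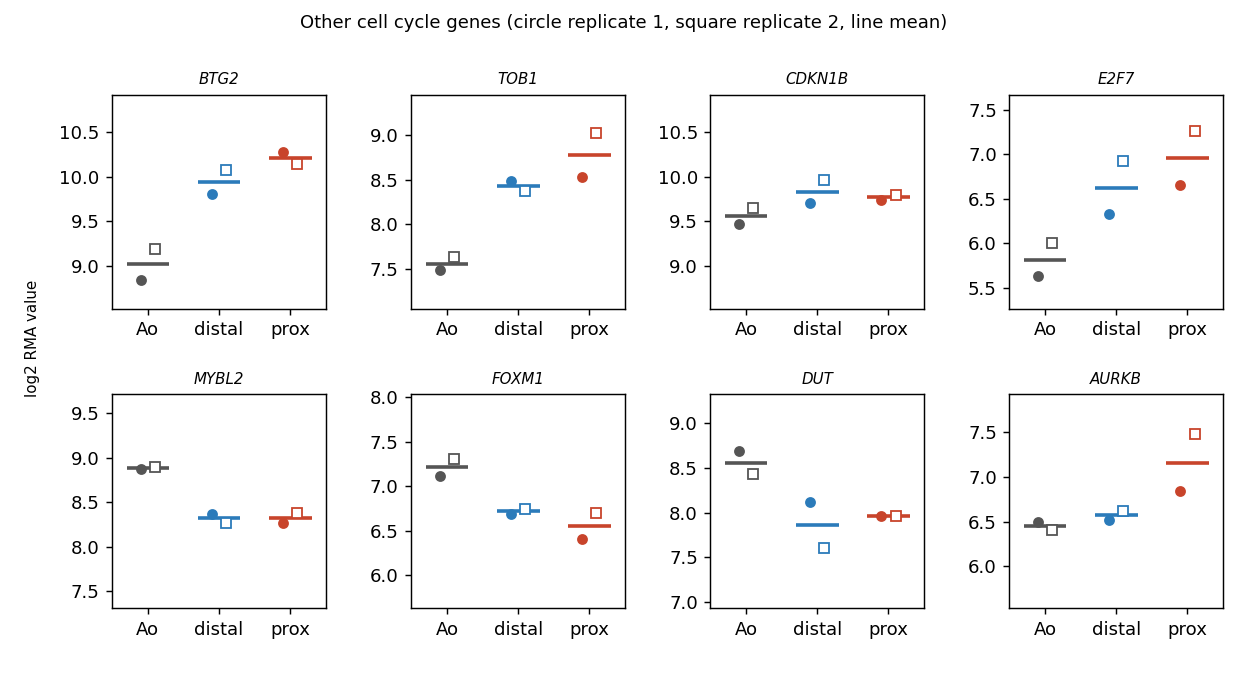
Log2 RMA values of 8 further cell cycle genes per tissue (Ao, aorta; distal, distal DA; prox, proximal DA), replicate 1 as a circle, replicate 2 as a square and the mean as a line, each panel spanning the same range of log2 units. *BTG2*, *TOB1*, *CDKN1B* and *E2F7* have both aorta arrays below all DA arrays, and *MYBL2*, *FOXM1* and *DUT* have them above.

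Markers of other cells moved with the tissues too. Between the proximal DA and the aorta, limma called 8 of 11 endothelial and 7 of 8 smooth muscle markers higher. It called 6 of 12 fibroblast and adventitial markers lower and 1 higher. Of melanocyte markers 5 of 9, of lung and airway epithelial 3 of 9 and of leukocyte 1 of 15 were called higher. Of 12 blood cell and 8 nerve and Schwann cell markers 0 were called (unadjusted, 1 higher and 1 lower, and 2 higher and 0 lower). Of all probe sets, 3.33% were called higher and 2.34% lower (unadjusted, 8.39% and 9.75%). Between the distal DA and the aorta, 5 of 11 endothelial, 7 of 8 smooth muscle and 1 of 12 blood cell markers were called higher. Of 12 fibroblast markers 1 was called higher and 2 lower there. No marker of the other lists was, and 1.60% of all probe sets were called. Between the 2 DA parts, 1 of 9 lung epithelial and 1 of 9 melanocyte markers were higher in the proximal DA by call. Of 12 fibroblast markers 1 was called lower, and 0.250% of all probe sets were called. Unadjusted, 6 of 11 endothelial, 6 of 9 lung epithelial and 6 of 9 melanocyte markers were higher and 0 lower. Smooth muscle markers had 4 higher and 1 lower, and fibroblast markers 0 and 4, against 3.95% and 3.36%. The mean log2 value of the endothelial markers was 7.75 and 7.78 in the aorta, 8.77 and 8.70 in the distal DA and 9.00 and 9.11 in the proximal DA, and that of the fibroblast markers 10.83 and 10.73, 10.37 and 10.46, and 10.24 and 10.14. In both lists the arrays of a tissue lay closer to each other than to those of another tissue. In the endothelial list, as in the mitosis genes, distal DA replicate 1 and proximal DA replicate 2 were the higher ones. The melanocyte markers did differ between replicates. They averaged 4.87 and 5.07 in the aorta, 5.10 and 4.98 in the distal DA and 6.03 and 6.79 in the proximal DA. Proximal DA replicate 2, where the mitosis genes were highest, was also the highest array for the melanocyte, smooth muscle, endothelial and lung epithelial markers. Of the lung epithelial markers, however, 5 of 9 were higher on proximal DA replicate 1. The leukocyte and the nerve and Schwann cell markers were highest on proximal DA replicate 1, and the blood cell markers on distal DA replicate 2. The fibroblast markers were lowest on proximal DA replicate 2. That array was also highest in the mean of the 11528 genes, 7.04, but lowest in that of all probe sets, 6.65. *KIT* and *RAB38* of the melanocyte markers lay below the lower quartile on all 6 arrays. So did *HEMGN* of the blood cell, *IKZF1* of the leukocyte, and *S100B* and *TH* of the nerve and Schwann cell markers. The blood cell markers averaged 6.45 and 6.71, 7.15 and 7.30, and 6.68 and 7.18, and the leukocyte markers 6.22 to 6.43 on all arrays. The part of these cells in the values of the cell cycle genes was not tested.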

How the data were processed

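Expression was measured on 6 arrays, 2 for each of 3 tissues. The deposited values are log2 values, which the authors made by RMA with the oligo package: background is removed, arrays are set to a common distribution and each probe set is reduced to a single value. The paper describes labelled cDNA, whereas the array record names cRNA. No detection calls were used, and precision is limited by the number of arrays. Symbols came from the array annotation: 12300 probe sets had 1 symbol, 256 several and 8248 none.

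All arrays were fitted at once in limma 3.58.1 (R 4.3.3), with tissue means as terms, 3 residual and 4.40 prior degrees of freedom, and Benjamini-Hochberg adjustment over 20804 probe sets. The median SE of a difference was 0.167. The fit was tested on simulated data. The members, lists and tests were chosen with earlier results of these data known. Named in full were called members and, per role, the members with the smallest p against the aorta; of further lists, called genes or that with the smallest p; other genes were chosen after their values were seen. Alternatives were a fit of 2 tissues, eBayes with trend, other normalizations, the brighter probe sets, the median of a gene's probe sets, each array left out and replicate number as a block. Promoter and protein sequences were not used here.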

Additional observations from a re-analysis of the deposited data

How the results depend on the processing

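The number of cell cycle genes called between the proximal DA and the aorta was 2. It was 0 in a fit of only the 2 tissues compared, 1 (*ANLN*) after quantile normalization and 1 after cyclic loess, and 0 to 1 when each array was left out. In the distal DA against the aorta it was 0, and 1 (*MCM4*) among the brighter probe sets, where 29 of the 36 genes were tested, and 0 to 0 without each array. Between the 2 DA parts it was 0 under every alternative run. The median difference of the 36 genes between the 2 DA parts, 0.17, was 0.08 to 0.28 with each array left out, highest without proximal DA replicate 1. The cause of these changes was not tested.

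The labels do not say whether replicate numbers pair the arrays. Over all probe sets, the replicate differences correlated at 0.20 between the aorta and the distal DA. The correlation was −0.03 between the aorta and the proximal DA, and 0.32 between the 2 DA parts. These values do not settle whether arrays with the same number belong together. With the replicate block 1 cell cycle gene was called between the proximal DA and the aorta (*CCNE2*, adjusted p = 0.0493 in limma), *ANLN* had an adjusted p of 0.0596, and *FOXM1* and *E2F7* were called (adjusted p = 0.0472 and 0.0102).

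Over all probe sets, the 1178 calls between the proximal DA and the aorta were 684 and 452 without proximal DA replicates 1 and 2, the 332 between the distal DA and the aorta 52 and 58 without distal DA replicates 1 and 2 and 199 without aorta replicate 2. The 52 between the 2 DA parts were 107 among the brighter probe sets, 80 with eBayes with trend, 0 with the block and 0 to 5 without an array of either DA part. Directions were compared only for 19 or 20 named genes per comparison, and none of those called was reversed. Few of these genes were called, so few could be counted as reversed. Over the 13 alternatives, values without a call changed sign in 2 of 245 cases for the proximal DA against the aorta. For the distal DA against the aorta it was 2 of 246, and between the 2 DA parts 2 of 258.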

Other observations

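Some of the genes had more than 1 probe set. *MKI67* had 5, and the 4 dimmer ones differed between the proximal DA and the aorta by 0.16, 0.07, 0.04 and −0.15, so that the dimmest, with 5.89 to 6.6 on the arrays, had the opposite sign. In the distal DA against the aorta all 5 were negative, from −0.33 to −0.07, and between the proximal and the distal DA all were positive, from 0.19 to 0.29. None was called. *CENPF* had 2 probe sets, which gave −0.03 and 0.28 between the proximal and the distal DA, neither called in limma (adjusted p = 0.997 and 0.804). The dimmer one was also 0.28 above the aorta in the proximal DA (adjusted p = 0.362). Its proximal DA arrays, at 6.35 and 6.49, were above all others.

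A probe set annotated as *CCNB1* belongs to a gene for which RefSeq lists *CCNB2*, a mitotic cyclin that was not found by symbol, as a synonym. It measured 9.70 and 9.43 in the aorta, 9.73 and 9.58 in the distal DA and 9.77 and 10.27 in the proximal DA. Both proximal DA arrays were above all others, and replicate 2 was the higher. The proximal DA was 0.46 above the aorta (adjusted p = 0.293 in limma) and 0.37 above the distal DA (adjusted p = 0.839).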
